A study of Mus musculus with 8 samples.

Results

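In the mouse mitochondrial genome, the 6 tRNA genes mt-Tf, mt-Tv, mt-Tl1, mt-Ti, mt-Tm and mt-Tw lie on the plus strand of the annotation from its first base to just past the end of mt-Nd2. Members were taken as features of the type Mt_tRNA whose Ensembl transcript belongs to one of these 6 gene names. This found 5 of the 6 genes, among 21 mitochondrial tRNA features and 2707 features of all kinds in the Ion Proton table and 2878 in the SOLiD table. No Mt_tRNA feature was found for mt-Tl1. Both tables hold a UCSC tRNA feature, LeuTAA, at exactly its coordinates, and the values of that feature are given beside the 5 without counting it among them.

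The libraries came from bone marrow-derived macrophages (BMDMs) of C57BL/6J mice, which the study's methods describe as male and 10 weeks old, grown with conditioned medium of L929 cells. Control cells had no treatment, and the other cells were kept for 36 h without M-CSF, the growth factor that macrophages need to survive, as an apoptotic stimulus. Total RNA was sequenced on an Ion Proton, with 2 libraries of control cells and 2 of cells after M-CSF withdrawal, and on a SOLiD, with 1 library of either kind. A further SOLiD pair, again 1 control and 1 withdrawal library, was made from RNA between 25 and 40 nt cut from a gel. The labels name no altered allele in any group. In bulk RNA of this kind, fewer cells of a type and less RNA per cell cannot be told apart.

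Mitochondrial tRNAs decode the few proteins that mitochondria make themselves, all of them parts of the respiratory chain and the ATP synthase. The genome is copied into long transcripts of each strand, in which tRNAs stand between the rRNAs and mRNAs, and RNase P and ELAC2 release them by cutting at their 5′ and 3′ ends. Genes on the plus strand of this annotation have the heavy strand as template and are read in the direction that also gives both rRNAs and nearly all the mRNAs. The libraries hold short inserts, and the tables give reads per feature without their length or position, so that whole tRNAs, fragments and precursors are not told apart here.

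The genes are placed on mm10 with the GENCODE mouse annotation, release 21, whose coordinates were those of the tables. mt-Tf, the tRNA for phenylalanine, is the first gene of the map, at chrM:1-68, and is followed after 1 bp by the rRNA gene mt-Rnr1. The valine tRNA mt-Tv, at chrM:1025-1093, fills the space between mt-Rnr1 and mt-Rnr2 with no gap on either side. mt-Tl1, for leucine, at chrM:2676-2750, stands between mt-Rnr2 and mt-Nd1 without a gap. The isoleucine tRNA mt-Ti, at chrM:3706-3774, overlaps the end of mt-Nd1 by 2 bp and the minus-strand tRNA mt-Tq by 3 bp. mt-Tm, at chrM:3845-3913, is the tRNA for methionine and touches the start of mt-Nd2. The tryptophan tRNA mt-Tw, at chrM:4950-5016, overlaps the end of mt-Nd2 by 2 bp. Neither rRNA gene nor a mitochondrial mRNA is a feature of these tables. All 6 transcripts are shown here, from the GENCODE sequences, because the results compare the reads counted on each of them. Each runs 5′ to 3′ in DNA letters, with the anticodon in capitals.
mt-Tf: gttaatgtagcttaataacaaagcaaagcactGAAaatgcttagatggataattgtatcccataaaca
mt-Tv: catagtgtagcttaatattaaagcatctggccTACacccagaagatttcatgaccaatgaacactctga
mt-Tl1: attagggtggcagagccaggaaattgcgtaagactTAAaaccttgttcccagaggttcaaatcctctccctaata
mt-Ti: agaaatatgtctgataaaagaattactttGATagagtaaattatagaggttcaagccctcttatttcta
mt-Tm: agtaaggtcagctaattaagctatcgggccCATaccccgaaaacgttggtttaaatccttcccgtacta
mt-Tw: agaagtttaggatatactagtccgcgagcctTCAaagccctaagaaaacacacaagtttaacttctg

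The 5 listed genes are 67 to 69 nt long, and mt-Tl1 is 75 nt. GC content ran from 27.5% in mt-Ti to 44.9% in mt-Tm. The longest stretch shared by any pair of the 6 was 12 nt, between mt-Tf and mt-Tv, which is shorter than the 15 bases that the shortest reads kept in the Ion Proton run had. Of the 5, mt-Tf shared 15 nt or more with another listed feature. The whole mature miRNA mmu-miR-6481, encoded at chr3:99199367-99199385 on the minus strand (GRCm38, from RefSeq), is found in mt-Tf at its bases 29 to 47, around the anticodon. It is shown, 5′ to 3′ with its seed (bases 2 to 8) in capitals, because reads of these letters fit both features.
mmu-miR-6481: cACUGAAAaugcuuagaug

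Depth, as reads on listed features, ranged from 6053130 to 7760142 over the Ion Proton libraries. On the SOLiD it was 5772453 (control) and 12178454 (withdrawal) for total RNA and 8910972 and 4039837 for size selected RNA. The class of miRNAs took 40.4% and 41.6% of reads in Ion Proton control libraries and 30.0% and 30.3% after withdrawal, and went from 82.2% to 41.3% in SOLiD total RNA, while tRNA features of UCSC went from 10.2% to 42.2% in the latter. In size selected RNA, miRNAs were likewise the largest class, and went from 87.4% to 45.1%, while tRNA features of UCSC went from 8.8% to 41.4%. Values scaled to library size are shares of such totals. RNA integrity numbers were 8.8 and 8.4 in Ion Proton controls and 8.9 and 8.4 after withdrawal, but 8.4 and 7.5 for total RNA on the SOLiD and 2.7 and 2.6 for size selected RNA. All 7 miRNAs chosen as myeloid markers were listed in the Ion Proton table, where they summed to 68504 and 74484 CPM (counts per 1000000 on listed features) in control libraries and to 51460 and 58616 CPM after withdrawal. The 5 listed in the SOLiD table went from 388233 to 145246 RPM (the same unit, as deposited) in total RNA and from 240569 to 99937 RPM in size selected RNA, so that the sum was lower after withdrawal in every set. Most of each sum was miR-21a-5p, and not every marker fell. miR-155-5p went from 198 and 177 to 222 and 198 CPM in Ion Proton. On the SOLiD it went from 361 to 575 RPM in total RNA and from 999 to 758 RPM in size selected RNA. miR-223-3p went from 9577 to 10355 RPM in size selected RNA, but was lower after withdrawal in the other sets. Of 9 miRNAs chosen for other cells, the 5 listed in the Ion Proton table summed to 11.4 to 13.4 CPM, and the 7 listed in the SOLiD table to 4842 RPM (control) and 3956 RPM (withdrawal) for total RNA and 3683 and 5943 RPM for size selected RNA. In Ion Proton, miR-122-5p of hepatocytes was at 0 in 3 of the libraries, but on the SOLiD it was at 52.7 to 89.6 RPM. The erythroid miR-451a was at 1.25 to 6.44 CPM in Ion Proton. On the SOLiD it was at 2394 to 3988 RPM, the largest part of the sum for other cells. The part of RNA quality, of the myeloid marker sum and of other cells in the values of the members was not tested.

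After M-CSF withdrawal, reads on mt-Tm, mt-Ti, mt-Tw and mt-Tv rose in the Ion Proton run, with log2 fold changes in this order from largest to smallest, and mt-Tf did not pass the test. mt-Tm had 247 and 268 CPM in the control libraries and 3191 and 2981 CPM after withdrawal, from 1913, 1923, 20812 and 18043 reads. The groups were far apart, and the spread inside each was small, with means of 257 ± 15 and 3086 ± 149 CPM (SD, n = 2 each). The log2 fold change by edgeR's quasi-likelihood test was 3.64 (SE 0.087, adjusted p = 0.00039 by Benjamini-Hochberg over 2029 features). It kept its call in each of 12 alternatives, from 3.47 to 3.95.

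mt-Ti was the least abundant of the 5 in control cells per base of gene. It was found at 5.93 and 3.06 CPM in control libraries and at 22.7 and 22.1 CPM after withdrawal, from 46, 22, 148 and 134 reads. Both withdrawal libraries stood well above both controls, which differed from each other by more than the withdrawal libraries did. The log2 fold change was 2.36 (SE 0.32, edgeR adjusted p = 0.011), and 12 alternatives kept the call.

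mt-Tv, the most abundant member per base in the Ion Proton controls, was at 613 and 562 CPM there and at 811 and 792 CPM after withdrawal. The groups did not overlap, but the step was small beside that of mt-Tm, with a log2 fold change of 0.50 (SE 0.078, edgeR adjusted p = 0.0148). mt-Tw was at 20.5 and 21.7 CPM in controls and at 34.3 and 37.0 CPM after withdrawal, with a log2 fold change of 0.81 (SE 0.12, edgeR adjusted p = 0.0148). Both calls were kept without either control library and lost without either withdrawal library, with folds about as large. Without M-CSF withdrawal replicate 1 the log2 fold change was 0.51 for mt-Tv (edgeR adjusted p = 0.063) and 0.89 for mt-Tw (0.057), and without M-CSF withdrawal replicate 2 it was 0.50 (0.064) and 0.74 (0.093). The DESeq2 Wald test also did not call mt-Tw (adjusted p = 0.078).

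mt-Tf was at 21.9 and 12.7 CPM in control libraries and at 17.0 and 14.5 CPM after withdrawal. Both withdrawal values lay between the controls, so that the groups overlapped. Its log2 fold change was -0.08 (SE 0.30, edgeR adjusted p = 0.88), and the sign turned with the scaling, to 0.23 when TMM factors were taken over miRNA features. For mmu-miR-6481, whose letters lie in mt-Tf, 0, 1, 12 and 3 reads were counted in the same libraries, few beside the 170, 91, 111 and 88 reads of mt-Tf.

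The UCSC feature at mt-Tl1, whose reads the rule did not count, had 84.8 and 65.0 CPM in control libraries and 213 and 231 CPM after withdrawal. Its groups did not overlap, and its log2 fold change of 1.62 (SE 0.16, edgeR adjusted p = 0.0042) lay between those of mt-Tw and mt-Ti.

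**Figure D1:**
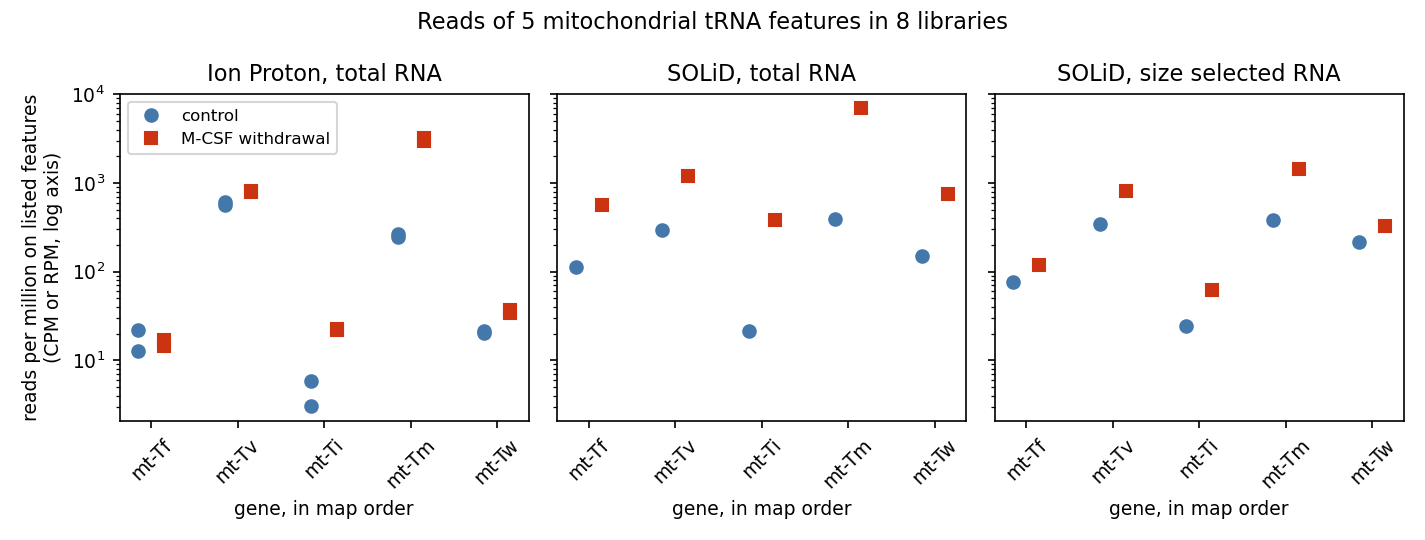
Reads per 1000000 on listed features (CPM for Ion Proton, RPM for SOLiD, log axis) of the 5 members in map order, with 1 point per library, circles for control and squares for M-CSF withdrawal. In the Ion Proton panel the groups are far apart for mt-Tm and overlap for mt-Tf, while in both SOLiD panels each withdrawal value lies above its control.

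In the Ion Proton run, 4 of the 5 members were called higher and 0 lower, where 15.7% of all features tested were called higher (318 of 2029, with 182 lower). Their median log2 fold change was 0.81, beside 0.08 over all features. That background depended on the scaling. TMM factors over miRNA features called 413 features higher and 80 lower and moved the median of all features to 0.39, and DESeq2 size factors in edgeR called 299 higher and 255 lower. The DESeq2 Wald test, which changes the test as well, called 236 higher and 241 lower. The 4 calls were also made with both other scalings of edgeR, DESeq2 size factors and total counts.

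The remaining 16 mitochondrial tRNA features were all higher after withdrawal by fold change, and 15 of them were called. The 8 others of the plus strand, from mt-Td on, had 7 called and a median log2 fold change of 2.85, from 2.08 for mt-Td, which was not called, to 3.58 for mt-Tg. All 8 of the minus strand were called, with a median of 3.59, from 0.59 for mt-Ty to 5.49 for mt-Tp. Of the 5 members, mt-Tm alone exceeded both of these medians, and mt-Tf, mt-Tv and mt-Tw were below each of the other 8 of the plus strand. On the minus strand, mt-Ty was likewise below mt-Tw. Next to one another on the map, mt-Ti, the minus-strand mt-Tq and mt-Tm changed by 2.36, 3.34 and 3.64 on the log2 scale, and mt-Tw, on the other side of mt-Nd2, by 0.81.

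**Figure D2:**
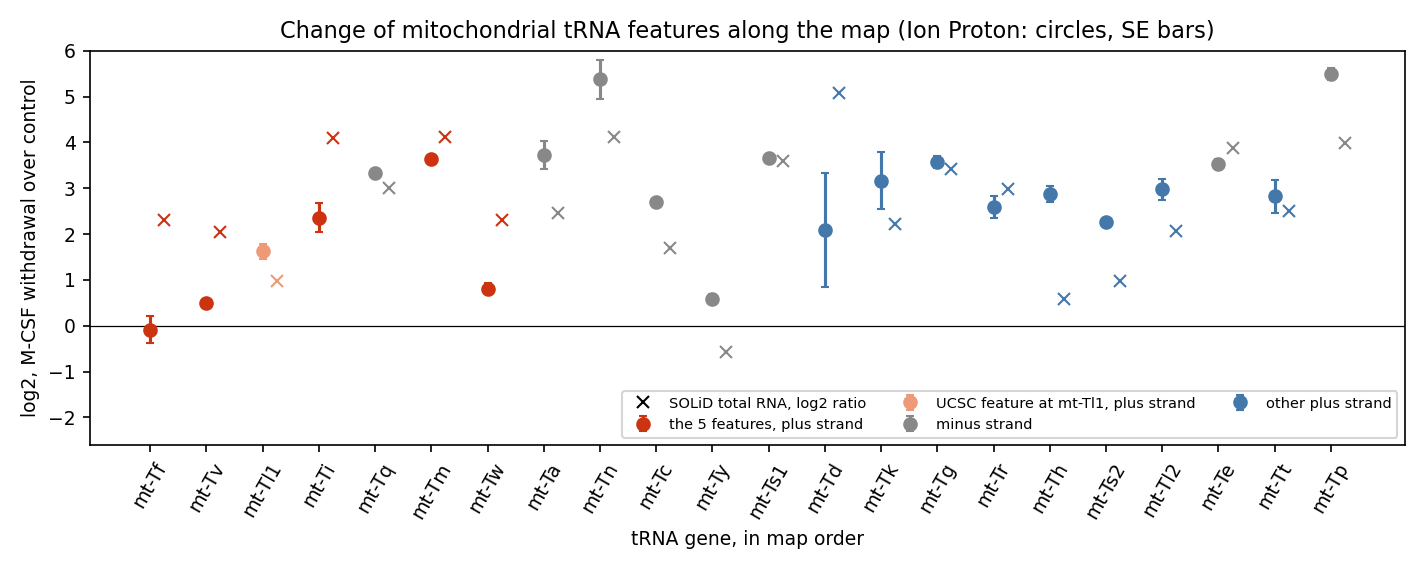
Log2 change after M-CSF withdrawal of the 21 mitochondrial tRNA features and the UCSC feature at mt-Tl1, in map order, with circles for Ion Proton (edgeR, bars are 1 SE) and crosses for the SOLiD pair of total RNA (no replicates). For mt-Tf, mt-Tv, mt-Ti and mt-Tw, and for mt-Td among the others, the cross lies well above the circle. The circles of mt-Tf, mt-Tv and mt-Tw lie lower than those of the other plus-strand features.

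Summed over the 5 members, reads went from 908 and 867 CPM to 4077 and 3847 CPM, while the other 16 went from 756 and 720 CPM to 6519 and 6379 CPM. The members therefore made up 54.6% of reads on mitochondrial tRNA features in each control library and 38.5% and 37.6% after withdrawal. The log2 ratio of the 5 to the 16 changed by -0.97, from 0.27 in both controls to -0.68 and -0.73. In the SOLiD run the same share went the other way in total RNA, from 30.9% to 44.1%, and as in Ion Proton in size selected RNA, from 44.3% to 34.2%. All of these shares leave out the UCSC feature at mt-Tl1. It had 607 (control) and 1192 RPM (withdrawal) in SOLiD total RNA, where the 5 summed to 974 and 9829 RPM. In size selected RNA it had 308 and 1276 RPM, beside sums of 1050 and 2782 RPM. Without mt-Tm, the sum of the other 4 was 662 and 599 CPM in controls and 885 and 866 CPM after withdrawal.

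The order of levels changed at its top. Per base of gene, mt-Tv led in Ion Proton control cells, at 8.89 and 8.14 CPM per nt, before mt-Tm at 3.57 and 3.88 CPM per nt. After withdrawal mt-Tm led, at 46.3 and 43.2 CPM per nt, before mt-Tv at 11.8 and 11.5 CPM per nt. mt-Tm was thus above mt-Tv in both withdrawal libraries and below it in both controls. Among the low members, mt-Tf (0.322 and 0.186 CPM per nt) and mt-Tw (0.306 and 0.324 CPM per nt) did not differ beyond their spread in controls, and mt-Ti was last at 0.0859 and 0.0444 CPM per nt. After withdrawal mt-Tw, mt-Ti and mt-Tf followed in this order in both libraries, without overlap. In all 4 SOLiD libraries mt-Tm led the members per base and was followed by mt-Tv, mt-Tw, mt-Tf and mt-Ti, in control cells as well. All of these orders leave out the UCSC feature at mt-Tl1. By RPM, that feature was above mt-Tm in the SOLiD total RNA control library (607 and 397 RPM) and below it in the other SOLiD libraries. By CPM, it was below mt-Tv and mt-Tm and above mt-Tf, mt-Tw and mt-Ti in each Ion Proton library.

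The ratio of mt-Tm to mt-Tv put a number on this exchange, since it does not depend on how a library is scaled. mt-Tm had 0.402 and 0.477 times the reads of mt-Tv in Ion Proton controls and 3.93 and 3.76 times after withdrawal. The log2 ratio changed by 3.13 (n = 2 each, exact two-sided permutation p = 0.333, the smallest that 2 against 2 libraries can give). In SOLiD total RNA the ratio went from 1.36 to 5.76, and in size selected RNA from 1.10 to 1.78, both in the same direction and by less on the log2 scale (2.08 and 0.69).

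**Figure D3:**
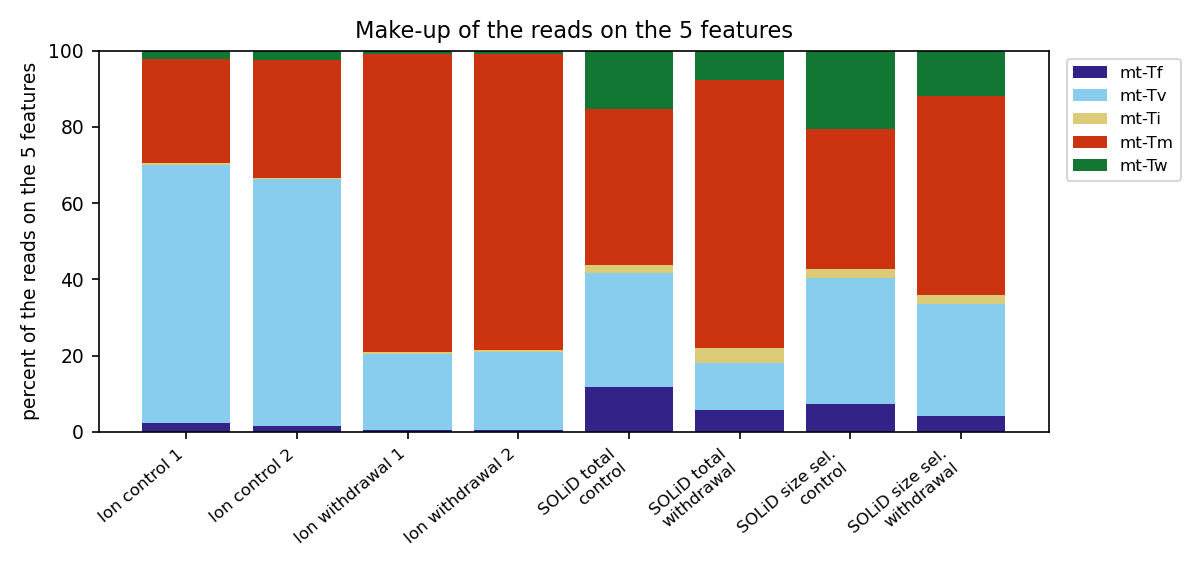
Share of each of the 5 members in the reads counted on them (percent, stacked to 100), with 1 bar per library. mt-Tv holds 67.5% and 64.8% in Ion Proton controls, mt-Tm holds 78.3% and 77.5% after withdrawal, and the SOLiD bars hold larger shares of mt-Tf and mt-Tw than the Ion Proton bars.

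In SOLiD total RNA all 5 members were higher after withdrawal, in the 1 library of each condition. mt-Tf, which had not moved past its spread in Ion Proton, was at 114 RPM in the control and 569 RPM in the withdrawal library (5.0-fold, exact 95% interval 4.61 to 5.42). mt-Tv went from 292 to 1203 RPM (4.12-fold, 3.92 to 4.34) and mt-Tw from 150 to 746 RPM (4.97-fold, 4.63 to 5.33). The counting intervals of mt-Tf and mt-Tw overlap, and that of mt-Tv lies below both. All 3 folds were smaller than those of the pair that follows. mt-Ti went from 21.5 to 381 RPM (17.7-fold, 14.8 to 21.4) and mt-Tm from 397 to 6930 RPM (17.5-fold, 16.8 to 18.2), 2 folds whose counting intervals overlap. All intervals cover counting error only. On the log2(RPM + 1) scale, all 5 changed by at least 1, as did 24.9% of 2513 features, and their median was 2.31 beside 0.18 over all features. Of the other 16 mitochondrial tRNA features, 13 did, with a median of 2.74. The UCSC feature at mt-Tl1 went from 607 to 1192 RPM (1.96-fold, 1.89 to 2.04).

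In size selected RNA, the folds were smaller. mt-Tm went from 385 to 1454 RPM (3.77-fold, 3.62 to 3.94), mt-Ti from 24.4 to 61.6 RPM (2.53-fold, 2.10 to 3.05) and mt-Tv from 349 to 817 RPM (2.34-fold, 2.23 to 2.46). mt-Tf, from 76.1 to 119 RPM (1.56-fold, 1.4 to 1.8), and mt-Tw, from 215 to 331 RPM (1.53-fold, 1.43 to 1.65), stayed under the 2-fold mark. So 3 of the 5 changed by at least 1 on the log2(RPM + 1) scale, where 32.1% of 2214 features did, and the median of the 5 was 1.22 beside 0.48 over all features. Of the other 16 mitochondrial tRNA features, 12 did, with a median of 1.47. Centred on the median of features with at least 10 RPM, mt-Tf and mt-Tw turned to -0.27 and -0.28 on the log2 scale. The UCSC feature at mt-Tl1 went from 308 to 1276 RPM (4.15-fold, 3.96 to 4.34), more than in total RNA and unlike the 5 members. The folds of mt-Th (1.49 in total and 2.52 in size selected RNA), mt-Ts2 (1.96 and 2.14) and mt-Ty (0.67 and 1.15) were also larger here. Those of the remaining mitochondrial tRNA features were smaller. mmu-miR-6481 had 11 and 282 reads in the total RNA pair and 20 and 57 in the size selected pair, beside 657, 6930, 678 and 479 reads on mt-Tf.

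**Figure D4:**
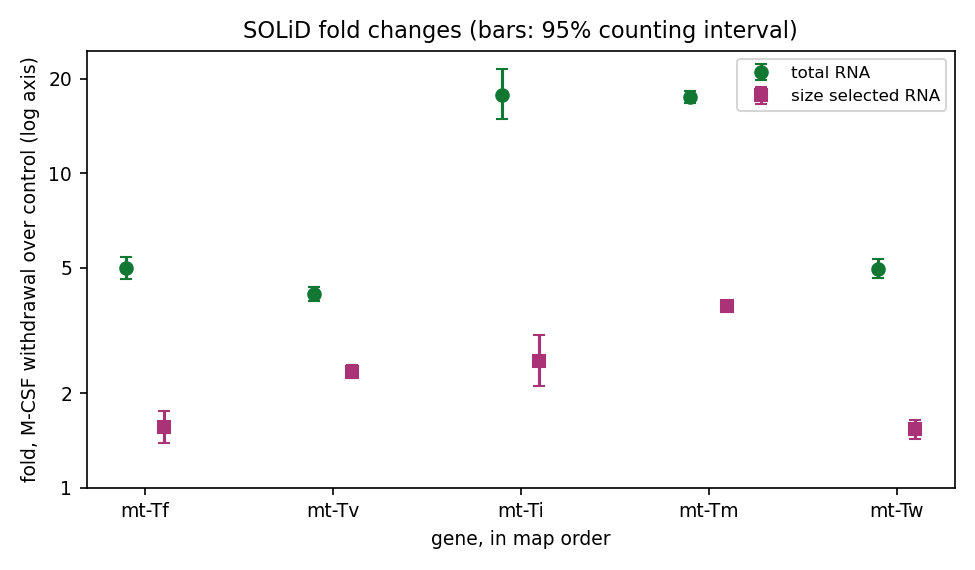
Fold change of RPM, M-CSF withdrawal over control (log axis), of the 5 members in the SOLiD run, with circles for total RNA and squares for size selected RNA. Bars are exact 95% intervals for counting error, and each square lies below its circle, with the widest gaps for mt-Ti and mt-Tm.

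Side by side within a condition, the 2 SOLiD preparations were closest in control cells. The RPM of size selected over total RNA was 0.97 for mt-Tm (exact 95% interval 0.92 to 1.02) and 1.13 for mt-Ti (0.91 to 1.43) there, so that neither differed beyond counting error. mt-Tv (1.2, 1.13 to 1.27) and mt-Tw (1.43, 1.32 to 1.56) were higher in size selected RNA, and mt-Tf (0.67, 0.60 to 0.75) was lower. After withdrawal all 5 were lower in size selected RNA, at 0.16 of the total RNA value for mt-Ti, 0.21 for mt-Tf and for mt-Tm, 0.44 for mt-Tw and 0.68 for mt-Tv. Among the other 16 mitochondrial tRNA features, this value ran from 0.080 for mt-Td to 2.12 for mt-Tp. Only mt-Tp and mt-Tl2 (1.09) were above 1 there. The UCSC feature at mt-Tl1 went from 0.51 in control cells to 1.07 after withdrawal. The 2 preparations differ in size range, and each value rests on 1 library.

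Over both runs of total RNA, 3 control and 3 withdrawal libraries, a limma model with treatment and run on log2(CPM or RPM + 1) called 2 of the 5 members higher and 0 lower, where 11.6% of 1701 features were called higher. mt-Tm changed by 3.76 (SE 0.17, limma adjusted p = 0.00038) and mt-Ti by 2.79 (SE 0.47, limma adjusted p = 0.015). mt-Tw (1.25, limma adjusted p = 0.061), mt-Tv (0.98, 0.097) and mt-Tf (0.72, 0.37) did not pass. For mt-Tw this depended on the setting, as it was called when centred on the median feature (0.95, limma adjusted p = 0.047), when scaled to miRNA reads (1.89, 0.041), by edgeR (0.98, 0.042) and by voom (1.08, 0.023). The median over the members was 1.25, beside 0.17 over all features. Of the other 16 mitochondrial tRNA features, 14 were called higher, with a median of 2.71, and so was the UCSC feature at mt-Tl1 (1.37, limma adjusted p = 0.015). The call of the latter was lost by edgeR (1.08, adjusted p = 0.083), by voom (0.96, 0.084) and without any 1 of the 4 Ion Proton libraries (1.2 to 1.42, limma adjusted p from 0.056 to 0.085). Leaving out control replicate 2, M-CSF withdrawal replicate 1 or M-CSF withdrawal replicate 2 of the Ion Proton run ended the call of mt-Ti (limma adjusted p = 0.094, 0.082 and 0.063), with log2 changes of 2.76, 2.97 and 2.98, about as large as with all libraries. With 1 SOLiD library left out, the run term takes up the other, so that the treatment estimate rests on the Ion Proton libraries alone. In either of these fits 4 of the 5 were called, mt-Tv and mt-Tw among them, and mt-Tf changed by -0.08. Calls over all features were 198 higher and 97 lower, against 178 higher and 230 lower when centred on the median feature and 296 higher and 2 lower when scaled to miRNA reads, which moved the median of all features to -0.14 and 0.69.

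All 5 members changed more in the SOLiD pair than in Ion Proton, by 0.54 for mt-Tm, 1.57 for mt-Tw, 1.59 for mt-Tv, 1.94 for mt-Ti and 2.39 for mt-Tf on the log2 scale. Each difference passed the test of a run by treatment term in limma (adjusted p from 0.0024 for mt-Tv to 0.048 for mt-Ti), where 21.0% of 1701 features were called with a larger change in SOLiD and the median over all features was 0.29. Of the other 16 mitochondrial tRNA features, 0 were called with a larger change in SOLiD and 5 with a smaller one. Their median difference was -0.79. Among these 16, mt-Td had a larger difference than any of the 5 members, at 3.65, and just missed the call (limma adjusted p = 0.0504). It had 13, 0, 30 and 15 Ion Proton reads. The UCSC feature at mt-Tl1, at -0.59 (limma adjusted p = 0.16), had the sign of the median of the 16. The spread in this test came from the Ion Proton libraries, as SOLiD had 1 library of each condition, and without M-CSF withdrawal replicate 1 or 2 limma called 0 features (512 and 542 of 1701 at an unadjusted p under 0.05, and edgeR called 408 with all libraries). The sizes moved with the scaling. Centred on the median feature, 3 of the 5 were called and mt-Tm differed by 0.07, and by edgeR and voom with TMM factors 2 of the 5 were called, mt-Tf and mt-Tv, while the difference of mt-Tm turned to -0.31 and -0.32. The runs also differed in kit, instrument, input and RNA integrity, and these cannot be told apart.

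Across the 8 libraries, centred within Ion Proton, SOLiD total and SOLiD size selected libraries, the mean profile of the 5 members on the log2(value + 1) scale was most like that of nuclear tRNA features for proline. Among 696 features whose means reached 10 CPM or RPM in each of the 3 sets, the highest Pearson r was 0.997, for chr7.tRNA979-ProAGG, before chr11.tRNA207-ProTGG and chr3.tRNA92-ProTGG, both at 0.992. The first of these had a mean of 377 CPM in Ion Proton controls and 995 CPM after withdrawal. The points share libraries, totals and the same contrast, and copies of a tRNA share reads, so that this is a description. Of the members themselves, mt-Ti (r = 0.994) followed the mean profile most closely and mt-Tf (r = 0.807) least.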

How the data were processed

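Small RNA libraries of mouse BMDMs were analysed from 2 tables. Ion Proton reads were trimmed by the authors with cutadapt 1.2.1, dropped if under 15 bases and mapped to mm10 with bowtie2 2.2.4, with at most 10 places kept for each, and raw counts per feature of miRBase, UCSC tRNAs and Ensembl 75 were deposited. Whether strand was used is not given in the sources used here. A read with several places can count on several features. For the SOLiD run, the authors mapped with LifeScope 2.5.1 and deposited RPM, other values than counts, as reads per 1000000 on listed features. All RPM were whole multiples of 1 read (tolerance 0.1 read), so reads were recovered. Methods name total RNA for the Ion Proton run where the labels name small RNA. The methods were followed.

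Counts were tested with edgeR 4.0.16 (TMM, quasi-likelihood, summed count of at least 5, SE from the F statistic) in R 4.3.3, and both runs with limma 3.58.1, trend, on log2(value + 1), which understates changes of low features. P-values were adjusted by Benjamini-Hochberg over all features, threshold 0.05. The design named 6 features, and counts are over the 5 found. Alternatives included DESeq2 1.42.0, voom, other scalings, filters and pseudocounts, a replicate block and each library left out, and the test of the difference between runs with its alternatives was chosen after seeing the data. SOLiD ratios have no test. Their RPM have Wilson half-widths of 0.67% to 17.7% (95%), for counting error only. Simulated data served only to try out the code, and no call here rests on that trial. In the measured Ion Proton libraries, scatter between replicates was 20.3 (control) and 19.1 (withdrawal) times the counting variance. Members, lists and tests were chosen with earlier results of these data known. All members were named, other mitochondrial tRNAs by group, and the 3 features most like the members. The study's methods call the Ion Proton replicates biological, without saying whether these were separate mice or separate cultures, and the labels do not say so either. P-values measure the spread between these libraries. The deviations of same-numbered libraries had r = -0.03 over 2029 features, so the numbers were not taken as pairs.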

Additional observations from a re-analysis of the deposited data

Results flagged for a closer look

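The change after M-CSF withdrawal differed between the runs for each of the 5 members by the run by treatment term of the limma fit, with SOLiD minus Ion Proton log2 differences of 2.39 for mt-Tf, 1.59 for mt-Tv, 1.94 for mt-Ti, 0.54 for mt-Tm and 1.57 for mt-Tw. By this term 21.0% of 1701 features were called with a larger change in SOLiD, which had 1 library of each condition. In Ion Proton alone mt-Tf had counts of 170 and 91 against 111 and 88, and in SOLiD total RNA 657 against 6930 reads. For mt-Tf and mt-Tv the difference was also called with edgeR and voom on reads, at 1.59 and 1.56 for mt-Tf and 0.74 by either tool for mt-Tv. That of mt-Tm was not called by either tool, at -0.31 and -0.32, nor when centred on the median feature, at 0.07. The runs differ in kit, instrument, RNA input and integrity, whose parts cannot be told apart. Groups of 2 libraries are too small for a test of single outlying libraries.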

How the results depend on the processing

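In the Ion Proton run, mt-Tm, mt-Ti and the UCSC feature at mt-Tl1 kept direction and call in all 12 alternatives. mt-Tf, never called, had a log2 fold change of 0.23 with TMM factors over miRNA features, and from -0.41 to 0.26 with 1 library left out (0.26 without control replicate 1 and 0.01 without M-CSF withdrawal replicate 2). With 1 library left out, 2 to 4 of the 5 members and 299 to 528 of all features were called. The replicate block called 359 features and 4 of the 5 members. For both runs, the replicate block in place of the run called 29 features and 1 of the 5 members, mt-Tm, which kept its call in all 15 alternatives. With 1 library left out, 15 to 564 features and 1 to 4 members were called over both runs, and mt-Tf ranged from -0.081 to 1.16, at -0.081 without either SOLiD library. The fits without a SOLiD library are among the 15 alternatives, but they rest on Ion Proton alone, since the run term takes up the other SOLiD library. For the difference between the runs, 3 of the 5 members were called when centred on the median feature, 2 by edgeR and 2 by voom, 0 to 4 with 1 Ion Proton library left out, when 0 to 211 of all features were called, and mt-Tm turned to -0.31 by edgeR and -0.32 by voom. In size selected RNA, centring on the median feature turned mt-Tf to -0.27 and mt-Tw to -0.28. The change in the log2 ratio of mt-Tm to mt-Tv was 3.01 to 3.25 with 1 library left out, and that of the 5 to the 16 other features -1.0 to -0.94. Over both runs, the UCSC feature at mt-Tl1 lost its call in 7 of 15 alternatives, the replicate block among them (adjusted p = 0.062). Causes of these changes were not tested. A fit with a library left out also has fewer degrees of freedom, and the part of this was not tested either. Depth limits mt-Ti most, with 22 to 148 Ion Proton reads.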
